A study of Mus musculus with 18 samples.

Results

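The genes described here are 38 enzymes of Phase I and Phase II xenobiotic metabolism in the mouse larynx, taken as the rows of a gene count table whose symbols were on a list of enzyme names. All 38 were found among 54532 genes, and 36 had enough counts to be tested, beside 17537 tested genes in all. RNA came from whole larynges of male C57BL6/J mice aged 8 to 9 weeks, with whole-body exposure over 4 weeks (5 days per week, 1 hour each). The 18 libraries form groups of 6. One group breathed aerosol of JUUL Virginia tobacco e-cigarettes, another breathed smoke of 3R4F, a research cigarette, and the controls breathed room air. All groups share strain, sex, age and schedule. Whether a library stands for 1 mouse is not stated, so the p-values speak only of the spread among libraries.

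Phase I enzymes add or expose a reactive group on a foreign compound. Cytochromes P450 and flavin-containing monooxygenases oxidise it, alcohol and aldehyde dehydrogenases carry alcohols on to aldehydes and acids, and carboxylesterases cut ester bonds. Phase II enzymes then attach glucuronic acid, sulfate, glutathione or an acetyl group, which makes the product easier to excrete. The airway lining carries its own set of these enzymes and meets inhaled nicotine, nitrosamines and aldehydes first.

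Total counts were 16.7 to 22.5 M in e-cigarette libraries, 15.9 to 20.3 M in smoke libraries and 15.6 to 17.1 M in air libraries, and mitochondrial genes took 4.97 to 7.6%, 4.66 to 5.19% and 4.18 to 6.09% of them in that order of groups. The libraries also differed in the tissue they held. The unit CPM is counts scaled to 1 M per library. Summed CPM of 10 thyroid follicle genes ran from 126 to 29244 in e-cigarette libraries, from 57941 to 95453 in smoke libraries and from 56853 to 98681 in air libraries, so the e-cigarette libraries did not overlap either of the others. Tg made up most of each sum, with 83.3 to 28860 CPM in e-cigarette libraries. Of the 10 thyroid genes 7 fell and 1 rose in e-cigarette against air libraries, and none was at 0 throughout a group. Duox2 was not called (log2 difference -0.31), and Duoxa2 fell by 0.86 on the log2 scale. Summed CPM of 4 parathyroid genes was 10.4 to 24.4 in e-cigarette libraries, 22.9 to 3591 in smoke libraries and 37.4 to 7760 in air libraries, with Pth and Gcm2 at 0 in some e-cigarette libraries. Of 9 tested gland genes 7 rose in e-cigarette against air libraries (summed CPM 19134 to 53848 in e-cigarette and 1130 to 25441 in air). Lipf, Dcpp1, Dcpp2 and Dcpp3 made up most of each gland sum. Of 10 fast skeletal muscle genes 6 rose in e-cigarette against air (31391 to 40265 in e-cigarette and 16483 to 30247 in air). In e-cigarette against air 4 of 10 fibroblast genes rose and 1 fell (summed CPM 1244 to 3907 in e-cigarette and 1367 to 2117 in air), and 3 of 10 basal cell genes rose (2481 to 4103 in e-cigarette and 2010 to 3961 in air). In smoke against air 3 of 9 gland genes rose (summed CPM 20050 to 30106 in smoke and 1130 to 25441 in air). In the same comparison 3 of 10 ciliated cell genes fell (215 to 268 in smoke and 262 to 493 in air). Of 9 club cell genes 2 fell, Bpifa1 and Sftpd. The club sums did not overlap (12660 to 17395 in smoke and 18805 to 25038 in air), but Bpifa1 made up most of each. Its range was 7789 to 11549 CPM in smoke and 13241 to 18564 CPM in air. Cyp2f2 (log2 difference 0.12), Scgb3a1 (0.37) and Cckar (0.18) lay above 0, uncalled, and the other club cell genes below 0. In smoke against e-cigarette 8 of 10 ciliated cell genes were lower (215 to 268 in smoke libraries, 278 to 475 in e-cigarette libraries). In bulk RNA, fewer cells of a type and less RNA per cell cannot be told apart. Hepatocyte genes were close to absent, at a summed CPM over 8 genes of 0.524 to 10.5 in e-cigarette, 0.675 to 7.27 in smoke and 0.633 to 13.7 in air libraries.

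In air libraries Gsto1 and Cyp2a5 were by far the most abundant members per length of transcript. Gsto1, an omega-class glutathione transferase that reduces mixed disulfides and dehydroascorbate, averaged 1037 CPM per kb in air. Cyp2a5, the mouse P450 that oxidises nicotine and coumarin, averaged 631 CPM per kb. Ces1d followed at 224, Aldh1a1 at 145, Por at 88.3 and Adh7 at 79.6 CPM per kb, and Cyp2a4 was last of the 38 at 0.226 CPM per kb. The members together took 0.653 to 0.908% of counts in e-cigarette libraries, 0.595 to 0.827% in smoke libraries and 0.627 to 0.836% in air libraries, ranges that overlap widely.

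Cyp2a5 (ENSMUSG00000005547, chr7:26835305-26843548, GRCm38) had closely similar levels in all groups. Its lowest, median and highest values were 1091, 1315 and 1495 CPM in e-cigarette libraries, 1151, 1265 and 1611 CPM in smoke libraries, and 1081, 1234 and 1645 CPM in air libraries. The ranges overlap almost fully. The log2 difference was -0.01 (SE 0.11, edgeR quasi-likelihood adjusted p = 0.976) in e-cigarette against air and -0.00 (adjusted p = 0.996) in smoke against air.

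Its neighbour Cyp2a4, best known in mouse as a liver steroid 15-alpha-hydroxylase, had only 111 counts over the 18 libraries, at 0 to 0.447 CPM in e-cigarette, 0.0579 to 0.82 CPM in smoke and 0.175 to 0.575 CPM in air libraries, and was not tested. The pair matters for reading these values because the coding sequences differ at 23 of 1482 bases (98.4% identity), so a read can fail to place between them. Of the stretches of 120 coding bases within 1 exon that start at the first base of a codon, 1 with the most differences is shown. It is from exon 2, coding positions 193 to 312. Capitals mark the 4 bases that differ (GRCm38, + strand, chr7:26835807-26835926 for Cyp2a5 and chr7:26307662-26307781 for Cyp2a4).
Cyp2a5: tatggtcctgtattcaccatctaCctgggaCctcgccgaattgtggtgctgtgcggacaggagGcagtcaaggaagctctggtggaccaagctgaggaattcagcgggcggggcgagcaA
Cyp2a4: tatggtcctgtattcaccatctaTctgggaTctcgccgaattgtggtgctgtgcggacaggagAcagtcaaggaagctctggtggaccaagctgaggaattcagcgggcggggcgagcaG
Of all 75-base windows of Cyp2a5 transcripts 22.3% also occur in another gene, mainly Cyp2a4, and for Cyp2a4 the share is 22.1%. Shares above 10% were otherwise found for Cyp4a12a (40.8%, with Cyp4a12b) and Aldh3b2 (18.3%, with Aldh3b3), and 18 members had no shared window. The read length is not given in the sources used here, so 75 bases is an assumed length. These shares are not shares of misplaced reads, and their effect on the counts of these 4 genes was not tested.

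Exposure to e-cigarette aerosol went with changes in members of several enzyme classes, and after smoke 1 member, Adh1, passed the test. In e-cigarette against air 13 of 36 tested members were called, meaning an adjusted p below 0.05 over all tested genes (36.1%, against 25.1% of all tested genes), 7 of them higher (against 12.1% of all genes) and 6 lower (against 13%). Between smoke and air 1 of 36 was called, Adh1 (2.78%, against 1.59% of all genes), which was higher (0.975% of all genes), and none was lower (0.616%), and between smoke and e-cigarette 9 were (25%, against 16.5%), 7 higher in smoke (10.4% of all genes) and 2 lower (6.1%). At an unadjusted p below 0.05 there were 18, 8 and 16 members in that order of comparisons. The share of all genes below that unadjusted cut was not counted, so such counts, here and below, have no background beside them. In smoke against air DESeq2 called 2 (5.88% of the genes it gave an adjusted p) and voom 5 (6.39% of all genes). Groups did not overlap for 8 members in e-cigarette against air (10.5% of all genes), 1 in smoke against air (2.43%) and 6 in smoke against e-cigarette (9.37%). The median log2 difference of the members was 0.07 in e-cigarette against air (0.01 for all genes), 0.04 in smoke against air (0.01) and -0.04 in smoke against e-cigarette (-0.01). The exposures are compared with the same 6 air libraries, so their values are given side by side and not as independent comparisons.

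The e-cigarette calls depend on which libraries and terms enter the fit. With 4 added terms for the mean level of thyroid follicle, cartilage, adipocyte and muscle genes, 1 member was called in e-cigarette against air (Aldh1a7, log2 difference 0.88, adjusted p = 0.0368), and 235 of all genes (1.34%). Without the 4 e-cigarette libraries lowest in thyroid transcripts (replicates 2, 4, 5 and 6), 2 members were called (Adh1 and Mgst1), and 3.71% of all genes. In smoke against e-cigarette no member was called by edgeR under either setting (4 and 7 at an unadjusted p below 0.05), when 0 and 0.794% of all genes were.

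**Figure D1:**
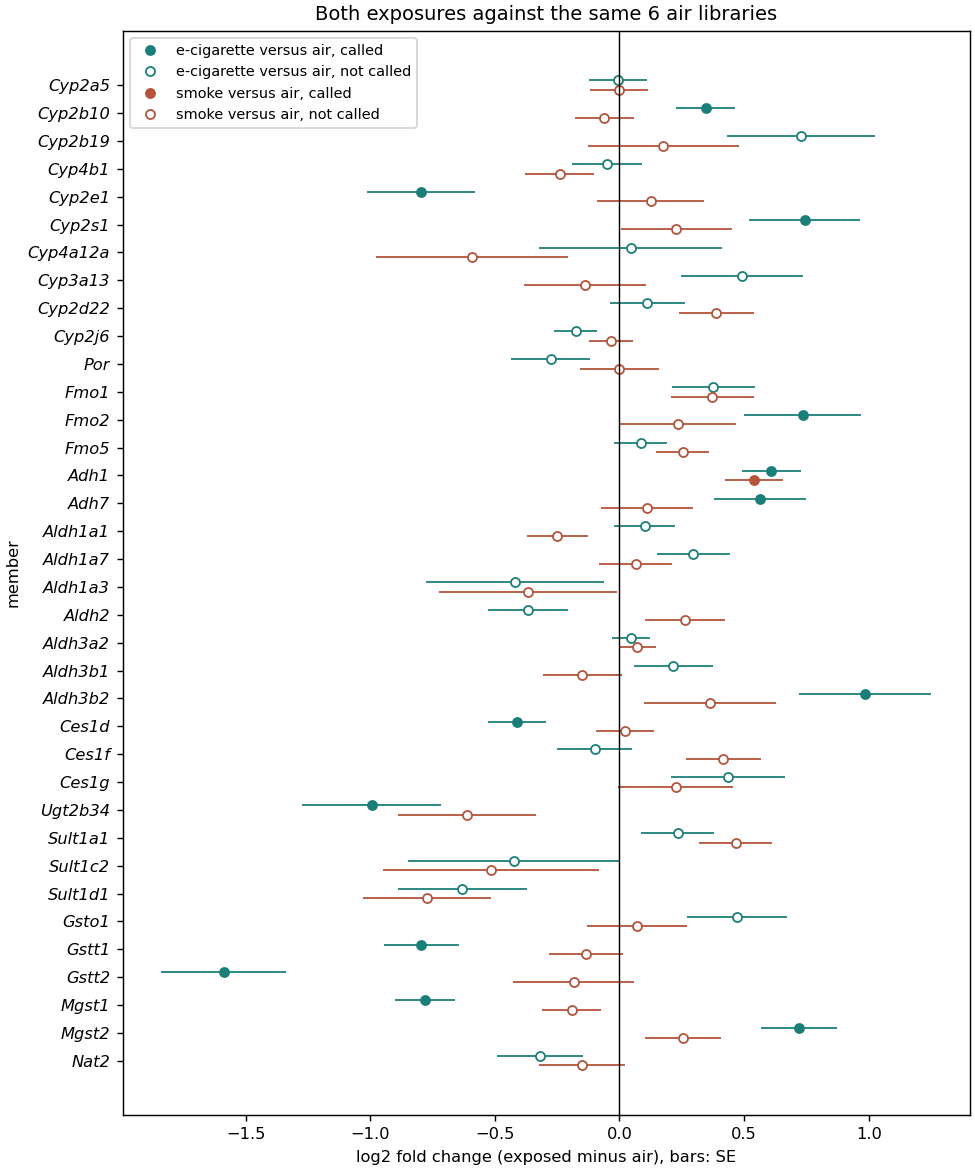
Log2 fold change of each tested member (rows, ordered by role) in e-cigarette against air and in smoke against air, with bars for the standard error of the fit, filled points for called members and open points for the rest. The e-cigarette points run from -1.59 for Gstt2 to 0.99 for Aldh3b2, and the smoke points lie between -0.77 and 0.54, with Adh1 the single filled one.

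Among the glutathione transferases 3 of 5 tested members fell and 1 rose in e-cigarette against air (13% and 12.1% of all genes), and 3 were higher and 1 lower in smoke against e-cigarette (10.4% and 6.1% of all genes). Gstt2 (ENSMUSG00000033318, chr10:75831114-75837424), a theta-class enzyme acting on small halogenated and peroxidised compounds, had 8.14, 15.8 and 27.2 CPM as lowest, median and highest in e-cigarette libraries, 34.1, 43.2 and 53.8 CPM in smoke libraries and 30.0, 48.0 and 74.5 CPM in air libraries. Every e-cigarette library lay below every smoke and air library. Gstt2 fell 3.01-fold against air (log2 difference -1.59, SE 0.25, edgeR adjusted p = 0.000181) and was 2.65-fold higher in smoke than in e-cigarette libraries (1.40, SE 0.25, adjusted p = 0.00103). Smoke against air gave -0.18 (adjusted p = 0.715).

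Gstt1 (ENSMUSG00000001663, chr10:75783813-75798584), a theta-class neighbour that conjugates dichloromethane and related solvents, followed the same order. It had 12.5, 18.0 and 20.1 CPM in e-cigarette, 21.8, 27.9 and 28.3 CPM in smoke and 21.5, 28.6 and 40.9 CPM in air libraries. Again no e-cigarette library reached the others. The log2 difference was -0.79 (SE 0.15, adjusted p = 0.000684) against air, and 0.66 (SE 0.15, adjusted p = 0.00528) in smoke against e-cigarette. Despite their shared class the coding sequences of Gstt1 and Gstt2 are only 59.5% identical, and neither has a 75-base window found in another gene. Gstt3, a further theta-class gene outside the 38, was also lower in e-cigarette than in air libraries (23.3 ± 3.03 CPM in e-cigarette and 35.3 ± 8.41 CPM in air, SD, n = 6 each, log2 difference -0.60, SE 0.14, adjusted p = 0.00393).

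Mgst1 (ENSMUSG00000008540, chr6:138140316-138156755), a membrane-bound enzyme that also reduces lipid peroxides, had 73.8, 89.5 and 102 CPM in e-cigarette, 109, 138 and 153 CPM in smoke and 123, 153 and 199 CPM in air libraries. The e-cigarette group did not overlap either other group. Mgst1 fell by 0.78 on the log2 scale against air (SE 0.12, adjusted p = 0.000105), and smoke exceeded e-cigarette by 0.59 (SE 0.12, adjusted p = 0.00242). Mgst2 (ENSMUSG00000074604, chr3:51660360-51682677), a related membrane enzyme that can also form leukotriene C4, went the other way. Its values were 40.9, 48.0 and 63.0 CPM in e-cigarette, 25.7, 40.2 and 42.8 CPM in smoke and 24.3, 30.6 and 37.8 CPM in air libraries. E-cigarette and air libraries did not overlap, and smoke lay across both. Mgst2 rose by 0.72 against air (SE 0.15, adjusted p = 0.00166) and was lower by 0.46 in smoke than in e-cigarette libraries (log2 difference -0.46, SE 0.15, adjusted p = 0.041). The call of Mgst2 between smoke and e-cigarette was lost without smoke replicate 3, 4 or 5 or e-cigarette replicate 1, 2 or 6 (adjusted p 0.0528 to 0.104) and with library totals (adjusted p = 0.0888).

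Gsto1, the most abundant member, had 1968, 2615 and 4245 CPM in e-cigarette, 1328, 2238 and 2766 CPM in smoke and 1491, 2138 and 2555 CPM in air libraries, with overlap throughout. Its log2 difference was 0.47 in e-cigarette against air (adjusted p = 0.0925) and 0.07 in smoke against air. Gsto1 overlaps Cfap43 on the opposite strand (25781 counts, against 748920 for Gsto1), and the library kit does not mark strand.

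**Figure D2:**
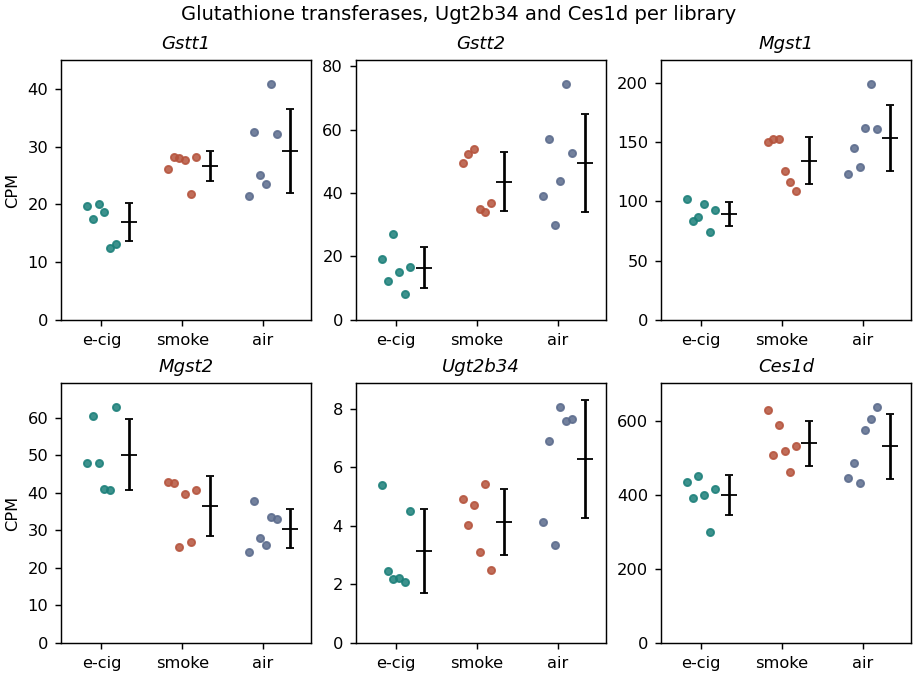
CPM of Gstt1, Gstt2, Mgst1, Mgst2, Ugt2b34 and Ces1d in each library (points) by group, with the mean and SD of 6 libraries beside them; axes start at 0. For Gstt1, Gstt2 and Mgst1 the e-cigarette points lie wholly below the smoke and air points, and for Mgst2 the e-cigarette points lie wholly above the air points.

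All e-cigarette libraries were below the smoke and air libraries in thyroid transcripts, but to differing degrees. Replicates 1 and 3 kept a summed thyroid level of 26867 and 29244 CPM, replicates 2 and 6 had 804 and 2918 CPM, and replicates 4 and 5 had 126 and 133 CPM. Gstt2 was at 19.2 and 27.2 CPM in replicates 1 and 3, at 12.4 and 16.6 CPM in 2 and 6, and at 15.1 and 8.14 CPM in 4 and 5. Its values in replicates 1 and 3 were the highest of the group and below every air library. Mgst1 gave 102 and 86.6 CPM in replicates 1 and 3, within the 73.8 to 97.9 CPM of the other e-cigarette libraries or just above. The part of thyroid and parathyroid transcript levels in these results was not tested.

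With the 4 tissue terms the log2 difference against air was -0.46 for Gstt2 (adjusted p = 0.560), -0.33 for Gstt1 (0.496), -0.53 for Mgst1 (0.167) and 0.77 for Mgst2 (0.137). Without e-cigarette replicates 2, 4, 5 and 6 it was -1.11 for Gstt2 (adjusted p = 0.0526), -0.58 for Gstt1 (0.118), -0.72 for Mgst1 (0.0367) and 0.64 for Mgst2 (0.0804).

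**Figure D3:**
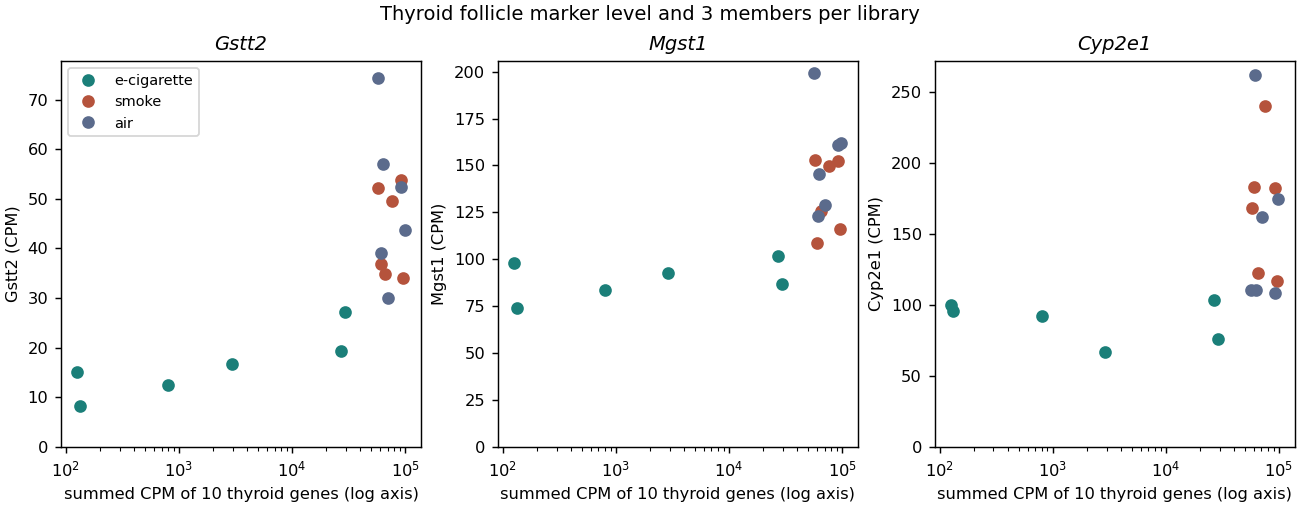
Summed CPM of 10 thyroid follicle genes (horizontal, log axis) against CPM of Gstt2, Mgst1 and Cyp2e1 (vertical, from 0) in each of 18 libraries, coloured by group. Tg makes up most of each thyroid sum. The e-cigarette libraries spread from 126 to 29244 CPM of thyroid genes and stay low in all 3 panels, while smoke and air libraries share the range above 56853 CPM.

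Among the other conjugating enzymes Ugt2b34 was the single member called by edgeR, in e-cigarette against air, where 25.1% of all genes were called. This glucuronosyltransferase (ENSMUSG00000029260, chr5:86889767-86906937), one of the family that attaches glucuronic acid to lipophilic compounds, had 2.08, 2.33 and 5.40 CPM in e-cigarette, 2.49, 4.39 and 5.43 CPM in smoke and 3.33, 7.24 and 8.07 CPM in air libraries. Of 6 e-cigarette libraries 4 lay below all air libraries. Ugt2b34 fell by 0.99 on the log2 scale in e-cigarette against air (SE 0.28, adjusted p = 0.0125) and stood at -0.61 in smoke against air (adjusted p = 0.22). Without air replicates 4, 5 and 6 the first value was -0.61 (adjusted p = 0.184), with the 4 tissue terms -0.04, and without e-cigarette replicates 2, 4, 5 and 6 -0.74 (adjusted p = 0.318). Voom called Ugt2b34 in smoke against air too, where it called 6.39% of all genes.

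No sulfotransferase of 3 tested was called by edgeR, which called 25.1% of all genes in e-cigarette against air and 1.59% in smoke against air. At an unadjusted p below 0.05 there were 1 and 2 in that order. DESeq2 called 1 in each comparison, where it called 28% of all genes and 5.88% of the genes it gave an adjusted p. Voom called 1 and 2, against 24.7% and 6.39% of all genes. Sult1d1, which sulfates catechols in mouse, had 31.6, 39.3 and 66.4 CPM in e-cigarette, 22.9, 42.3 and 54.0 CPM in smoke and 44.2, 69.7 and 98.2 CPM in air libraries. The log2 difference was -0.63 in e-cigarette against air (adjusted p = 0.0824) and -0.77 in smoke against air (adjusted p = 0.115). Air libraries differed among themselves, with 45.0, 56.7 and 44.2 CPM in replicates 1, 2 and 3 and 82.8, 98.2 and 96.3 CPM in replicates 4, 5 and 6. Without air replicates 1, 2 and 3, Sult1d1 was called lower in e-cigarette (-1.03, adjusted p = 0.0097) and in smoke (-1.17, adjusted p = 0.0104). Sult1a1, the phenol sulfotransferase, had 23.4, 31.2 and 38.4 CPM in e-cigarette, 27.8, 35.9 and 52.1 CPM in smoke and 20.9, 27 and 32.8 CPM in air libraries, and its smoke against air difference was 0.47 (adjusted p = 0.0945). Sult1a1 overlaps Sgf29 on the opposite strand, which had 3271 counts against 10145. Sult1c2 stayed below 1 CPM on average in every group.

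The N-acetyltransferases, which acetylate aromatic amines, were low. Nat2 had 4.02, 4.79 and 6.24 CPM in e-cigarette, 4.40, 5.33 and 6.23 CPM in smoke and 4.30, 5.67 and 9.11 CPM in air libraries, with a log2 difference of -0.32 in e-cigarette against air (adjusted p = 0.188). Nat1 had 165 counts in all and was not tested.

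Of 10 tested cytochromes P450, 2 rose and 1 fell in e-cigarette against air, where 25.1% of all genes were called, and none was called by edgeR in smoke against air (1 at an unadjusted p below 0.05, 0 called by DESeq2 and 1 by voom, Cyp2d22). Cyp2e1 (ENSMUSG00000025479, chr7:140763739-140774987), which oxidises ethanol, acetone and small nitrosamines, had 67.0, 94.0 and 104 CPM in e-cigarette, 117, 175 and 240 CPM in smoke and 109, 137 and 262 CPM in air libraries. The e-cigarette group lay wholly below both others, and smoke and air overlapped. Cyp2e1 fell by 0.80 against air (SE 0.22, adjusted p = 0.0114) and was higher by 0.92 in smoke than in e-cigarette (SE 0.22, adjusted p = 0.00721). The difference against air was -1.42 (adjusted p = 0.0709) with the 4 tissue terms, -0.80 (0.233) without e-cigarette replicates 2, 4, 5 and 6, and -0.57 (0.0668) without air replicates 1, 2 and 3.

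Cyp2s1 (ENSMUSG00000040703, chr7:25802475-25816913), a P450 of lining epithelia outside the liver, had 75.8, 88.0 and 112 CPM in e-cigarette, 38.6, 60.2 and 109 CPM in smoke and 34.9, 53.7 and 69.2 CPM in air libraries. No e-cigarette library overlapped air, whereas smoke overlapped both. Cyp2s1 rose by 0.74 against air (SE 0.22, adjusted p = 0.0202), and smoke against air was 0.23 (adjusted p = 0.602). The call was lost without air replicate 3 (0.63, adjusted p = 0.0517), without e-cigarette replicate 3 (0.65, adjusted p = 0.052) and without air replicates 1, 2 and 3 together (0.51, adjusted p = 0.201), with the 4 tissue terms (0.96, adjusted p = 0.322) and without e-cigarette replicates 2, 4, 5 and 6 (0.82, adjusted p = 0.21). Library totals (adjusted p = 0.0557) and no low count filter (0.0688) also ended it.

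Cyp2b10 (ENSMUSG00000030483, chr7:25897620-25926624), known in mouse liver as a gene that barbiturates induce through the nuclear receptor CAR, had 69.2, 83.3 and 91.5 CPM in e-cigarette, 47.5, 60.7 and 78.3 CPM in smoke and 55.1, 66.2 and 73.7 CPM in air libraries. Of the e-cigarette libraries 5 of 6 exceeded every air library. Cyp2b10 rose by 0.35 against air (SE 0.12, adjusted p = 0.0365) and was lower in smoke than in e-cigarette (-0.41, SE 0.12, adjusted p = 0.022). The call against air was lost without air replicate 2, 3, 5 or 6 or e-cigarette replicate 2, 3, 4, 5 or 6 (adjusted p 0.0527 to 0.0966). It was also lost with voom (adjusted p = 0.15), library totals (0.117) or no low count filter (0.0606), and without air replicates 4, 5 and 6 (0.111) or 1, 2 and 3 (0.112). The value was 0.07 with the 4 tissue terms and 0.19 without e-cigarette replicates 2, 4, 5 and 6. The call against e-cigarette was lost without smoke replicate 2, 3 or 5 or e-cigarette replicate 5 (adjusted p 0.0544 to 0.0605) and with voom (adjusted p = 0.0522).

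The remaining P450 genes were not called in any comparison by edgeR with all libraries and no added terms. Cyp4b1, an airway P450 that activates furans and aromatic amines, averaged 121 CPM in e-cigarette, 106 CPM in smoke and 125 CPM in air libraries. Cyp2b19, a keratinocyte P450, averaged 2.97, 2.02 and 1.78 CPM in that order of groups (e-cigarette against air 0.73, SE 0.30, adjusted p = 0.0784). Cyp3a13, which hydroxylates many drugs, was at 0.49 in e-cigarette against air (adjusted p = 0.154), Cyp2d22 at 0.11 and Cyp2j6 at -0.18 (adjusted p = 0.147). Cyp2d22 had 27.4 to 31.3 CPM in smoke and 15.8 to 31.6 CPM in air libraries. Voom called Cyp2d22 in smoke against air, where it called 6.39% of all genes. Cyp4a12a, a lauric acid hydroxylase, was low, with a mean below 1 CPM in every group. Por, the reductase that passes electrons to every microsomal P450, had 222, 279 and 400 CPM in e-cigarette, 270, 359 and 393 CPM in smoke and 224, 368 and 415 CPM in air libraries. Its log2 difference was -0.28 in e-cigarette against air (adjusted p = 0.219) and -0.00 in smoke against air (adjusted p = 0.999).

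The aryl hydrocarbon receptor, which combustion products activate, binds DNA around the letters GCGTG. Promoters of 27 of the 38 members were matched by symbol in RefSeq (GRCm38.p6, 250 bases before to 50 after the start). On either strand 5 of 27 held GCGTG (18.5%), against 8772 of 27025 promoters of the same length (32.5%). The letters TGACNNNGC, the core bound by NRF2, were in 2 of 27 (7.41%), against 12.5% of all promoters. A match is a description of the letters, not a binding site. The promoter of Cyp2b10 is shown as one with 2 GCGTG matches, 101 and 9 bases before the start (chr7:25897408-25897707, + strand), and that of Mgst1 as one with a TGACNNNGC match, 56 bases before the start on the opposite strand (chr6:138140277-138140576, + strand). Capitals mark the matches, which do not overlap each other.
Cyp2b10: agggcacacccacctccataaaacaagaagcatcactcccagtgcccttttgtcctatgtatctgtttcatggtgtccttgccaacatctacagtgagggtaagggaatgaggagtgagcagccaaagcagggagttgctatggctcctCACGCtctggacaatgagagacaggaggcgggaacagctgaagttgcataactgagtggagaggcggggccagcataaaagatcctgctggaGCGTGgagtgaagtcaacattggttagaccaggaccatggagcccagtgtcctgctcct
Mgst1: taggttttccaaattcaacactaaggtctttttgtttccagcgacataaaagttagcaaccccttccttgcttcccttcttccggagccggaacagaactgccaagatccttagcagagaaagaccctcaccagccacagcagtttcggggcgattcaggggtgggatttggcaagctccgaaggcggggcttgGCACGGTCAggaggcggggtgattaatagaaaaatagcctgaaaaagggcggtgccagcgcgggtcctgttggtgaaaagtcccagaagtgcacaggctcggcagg
Neither gene was called in smoke against air (-0.06, adjusted p = 0.815 for Cyp2b10 and -0.19, adjusted p = 0.385 for Mgst1).

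Both tested alcohol dehydrogenases rose in e-cigarette against air, where 12.1% of all genes rose. Adh1 was the one member called after smoke, where 0.975% of all genes rose. Adh1 (ENSMUSG00000074207, chr3:138260991-138290698), which oxidises ethanol and retinol, had 68.8, 78.5 and 95.3 CPM in e-cigarette, 62.0, 77.7 and 88.8 CPM in smoke and 36.7, 55.1 and 57.2 CPM in air libraries. All exposed libraries lay above all air libraries. Adh1 rose by 0.61 in e-cigarette against air (SE 0.12, adjusted p = 0.000743) and by 0.54 in smoke against air (SE 0.12, adjusted p = 0.0281). Smoke against e-cigarette was -0.07 (SE 0.12, adjusted p = 0.735). The smoke call of Adh1 was lost without air replicate 5 or 6 or smoke replicate 1, 3, 4 or 6 (0.49 to 0.55, adjusted p 0.0504 to 0.0693), with a term for replicate number (0.54, adjusted p = 0.0863), and with the 4 tissue terms (0.54, adjusted p = 0.263). It was also lost without air replicates 4, 5 and 6 (0.57, adjusted p = 0.0551), without e-cigarette replicates 2, 4, 5 and 6 (0.51, adjusted p = 0.0584), with library totals (adjusted p = 0.0581) and in a fit of only smoke and air (adjusted p = 0.0602). The e-cigarette value was 0.71 with those terms (adjusted p = 0.138) and 0.64 (adjusted p = 0.0467) without e-cigarette replicates 2, 4, 5 and 6.

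Adh7 (ENSMUSG00000055301, chr3:138217760-138233382), the class IV enzyme of stomach and upper airway epithelia and the neighbour of Adh1 on chromosome 3, had 325, 430 and 574 CPM in e-cigarette, 212, 348 and 421 CPM in smoke and 204, 328 and 362 CPM in air libraries. Of 6 e-cigarette libraries 5 lay above every air library. Adh7 rose by 0.56 against air (SE 0.18, adjusted p = 0.0302), and smoke against air was 0.11 (adjusted p = 0.784). The call was lost without air replicate 2 or 3 or e-cigarette replicate 2, 3 or 5 (adjusted p 0.0598 to 0.0782). It was also lost with the 4 tissue terms (0.77, adjusted p = 0.301), without e-cigarette replicates 2, 4, 5 and 6 (0.58, adjusted p = 0.227) and without air replicates 1, 2 and 3 (0.36, adjusted p = 0.25), and with voom (adjusted p = 0.0612), library totals (0.109) or no low count filter (0.0784).

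Of 7 tested aldehyde dehydrogenases 1 rose in e-cigarette against air, where 12.1% of all genes rose. Aldh3b2 (ENSMUSG00000075296, chr19:3972328-3981645), known in mouse for oxidising fatty aldehydes, had 36.1, 52.1 and 73.3 CPM in e-cigarette, 16.0, 38.4 and 57.0 CPM in smoke and 20.6, 29.0 and 31.5 CPM in air libraries. E-cigarette and air did not overlap, while smoke spread from below to well above the air range. Aldh3b2 rose 1.98-fold (log2 difference 0.99, SE 0.26, adjusted p = 0.0109), and smoke against air was 0.36 (adjusted p = 0.467). The e-cigarette call was lost without air replicates 1, 2 and 3 (0.92, adjusted p = 0.0937), without air replicates 4, 5 and 6 (1.04, adjusted p = 0.0563), with the 4 tissue terms (1.12, adjusted p = 0.324) and without e-cigarette replicates 2, 4, 5 and 6 (1.2, adjusted p = 0.088).

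Aldh2 (ENSMUSG00000029455, chr5:121566027-121593824), the mitochondrial enzyme that clears acetaldehyde, had 205, 292 and 407 CPM in e-cigarette, 397, 468 and 514 CPM in smoke and 283, 397 and 463 CPM in air libraries. Of the smoke libraries 5 of 6 exceeded every e-cigarette library. Aldh2 was higher by 0.63 in smoke than in e-cigarette (SE 0.16, adjusted p = 0.0111), against 0.18 with the 4 tissue terms and 0.45 (adjusted p = 0.388) without e-cigarette replicates 2, 4, 5 and 6. Neither exposure passed the threshold against air (-0.37, adjusted p = 0.103 for e-cigarette and 0.26, adjusted p = 0.377 for smoke).

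Aldh1a1, which turns retinal into retinoic acid and also oxidises lipid aldehydes, had 629, 777 and 909 CPM in e-cigarette, 507, 609 and 648 CPM in smoke and 544, 697 and 908 CPM in air libraries. It missed the threshold in smoke against e-cigarette (-0.35, SE 0.12, adjusted p = 0.0544). Without air replicates 1, 2 and 3 it was called lower in smoke than in air (-0.48, adjusted p = 0.0114), against -0.25 (adjusted p = 0.26) with all libraries. Aldh1a7, its neighbour with 91.6% coding identity, had a log2 difference of 0.30 in e-cigarette against air (adjusted p = 0.15), and 0.65 (adjusted p = 0.00325) without air replicates 4, 5 and 6.

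Aldh1a3, a retinoic acid producer of developing and glandular epithelia, ranged from 13.6 to 23.3 CPM in e-cigarette, from 13.0 to 29.1 CPM in smoke and from 8.42 to 46.9 CPM in air libraries. Air replicates 1, 2 and 3 had 22.0, 43.6 and 46.9 CPM and air replicates 4, 5 and 6 had 8.42, 12.4 and 13.8 CPM. Summed gland markers in the same libraries were 17980, 25441 and 22104 CPM, then 5412, 1130 and 1778 CPM. Gland sums were 20050 to 30106 CPM in smoke and 19134 to 53848 CPM in e-cigarette libraries, where Aldh1a3 reached at most 29.1 and 23.3 CPM. Summed parathyroid markers in air replicates 1 to 6 were 2521, 7228, 7760, 37.4, 2383 and 1115 CPM. In smoke replicates 2, 4 and 5 they were 3591, 1900 and 1485 CPM (Aldh1a3 at 29.1, 19.4 and 22.4 CPM). In smoke replicates 1, 3 and 6 they were 26.3, 22.9 and 28.7 CPM (Aldh1a3 at 13.3, 13.0 and 16.8 CPM). They were 10.4 to 24.4 CPM in e-cigarette libraries. The part of gland and parathyroid transcripts in the Aldh1a3 values was not tested. Aldh3a2, the fatty aldehyde dehydrogenase of the endoplasmic reticulum, varied little, at 0.05 in e-cigarette against air (SE 0.08) and 0.07 in smoke against air. Aldh3b1, which oxidises aldehydes from lipid peroxidation, was at 0.22 in e-cigarette against air and -0.15 in smoke against air.

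Of 3 flavin-containing monooxygenases 1 rose in e-cigarette against air, where 12.1% of all genes rose. These enzymes oxidise soft nitrogen and sulfur atoms, among them nitrogen of nicotine. Fmo2 (ENSMUSG00000040170, chr1:162874317-162898726), the main form of mouse lung, had 161, 261 and 322 CPM in e-cigarette, 123, 162 and 280 CPM in smoke and 86.1, 166 and 221 CPM in air libraries. Of 6 e-cigarette libraries 5 exceeded all air libraries. Fmo2 rose by 0.73 against air (SE 0.24, adjusted p = 0.0281), and smoke against air was 0.24 (adjusted p = 0.609). The call was lost without air replicate 2 or 3 or e-cigarette replicate 3, 4 or 5 (0.60 to 0.71, adjusted p 0.0509 to 0.0758), without air replicates 1, 2 and 3 (0.45, adjusted p = 0.22), with the 4 tissue terms (1.02, adjusted p = 0.28) and without e-cigarette replicates 2, 4, 5 and 6 (0.77, adjusted p = 0.219). The Fmo2 call was lost as well with voom (adjusted p = 0.0731), library totals (0.075) and no low count filter (0.0921). Fmo1 averaged 74.3 CPM in e-cigarette, 74.1 CPM in smoke and 57.3 CPM in air libraries (0.38, adjusted p = 0.107 for e-cigarette against air, and 0.37, adjusted p = 0.219 for smoke against air). Fmo5 was at 0.09 in e-cigarette against air and 0.25 in smoke against air.

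**Figure D4:**
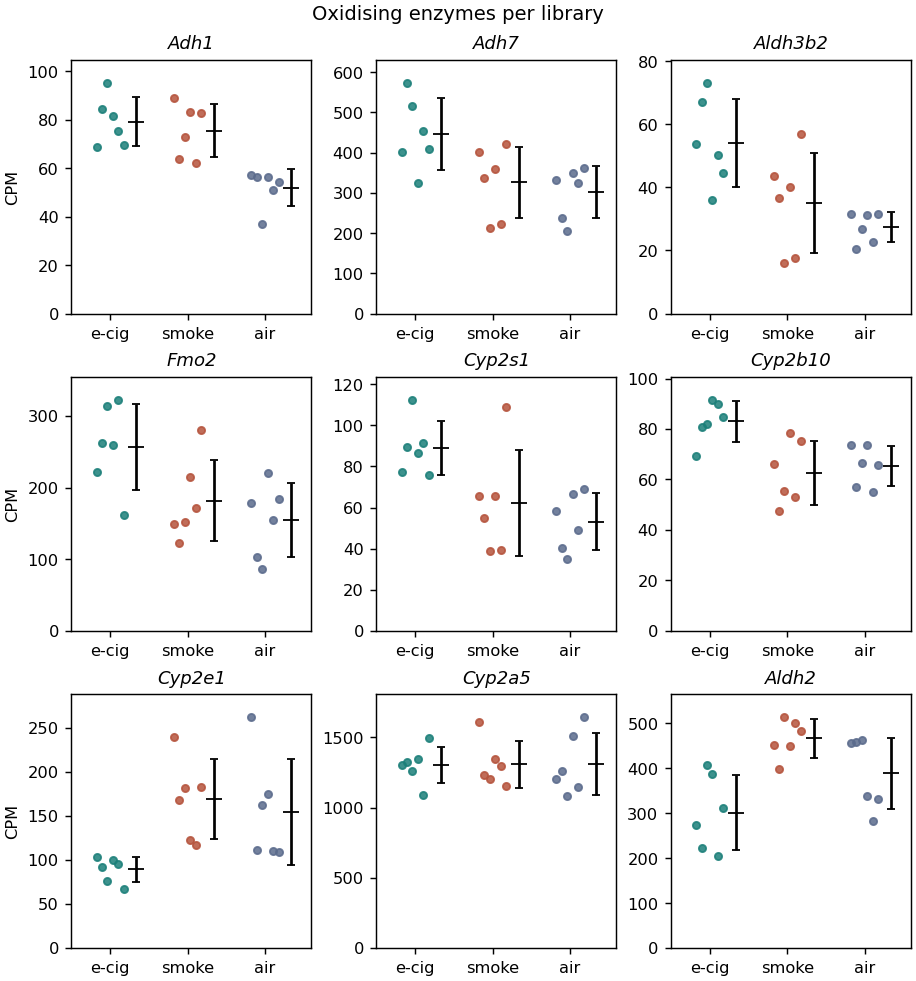
CPM of 9 oxidising enzymes in each library (points) by group, with the mean and SD of 6 libraries beside them; axes start at 0. Adh1 is separate from air in both exposed groups, Cyp2e1 in e-cigarette libraries lies wholly below the other groups, and Cyp2a5 runs from 1091 to 1495 CPM in e-cigarette, 1151 to 1611 CPM in smoke and 1081 to 1645 CPM in air libraries.

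Aldh3b2, Cyp2s1 and Adh7 varied together among smoke libraries, beside the markers of squamous epithelium and of basal cells. Summed CPM of 10 squamous genes was 6317 to 22695 in e-cigarette, 3189 to 20332 in smoke and 2985 to 9945 in air libraries, and none of the 10 was at 0 throughout a group. None was called by edgeR, DESeq2 or voom in any comparison (in edgeR 2 at an unadjusted p below 0.05 in e-cigarette against air, 1 in smoke against air and 0 in smoke against e-cigarette). Smoke replicate 6, at 20332 CPM of squamous genes, had the highest smoke values of Aldh3b2 (57.0 CPM), Cyp2s1 (109 CPM) and Adh7 (421 CPM). Smoke replicates 3 and 5, at 3189 and 3651 CPM, had the lowest, with 16.0 and 17.5 CPM for Aldh3b2, 38.6 and 39.4 CPM for Cyp2s1 and 212 and 222 CPM for Adh7. Summed basal cell markers were likewise highest in smoke replicate 6 (3292 CPM) and lowest in smoke replicates 3 and 5 (1561 and 1764 CPM). In e-cigarette libraries, replicate 3 had the highest squamous level (22695 CPM) and the highest Aldh3b2 (73.3 CPM) and Cyp2s1 (112 CPM), while replicate 6, lowest in squamous genes at 6317 CPM, had 44.6 CPM of Aldh3b2 and 75.8 CPM of Cyp2s1. The order was not the same for every gene, since Adh7 was highest in e-cigarette replicate 2 (574 CPM) and Aldh3b2 was lowest in replicate 4 (36.1 CPM). The part of squamous and basal cell transcript levels in the e-cigarette results of these genes was not tested.

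Carboxylesterases hydrolyse ester drugs and lipids, and Ces1d (ENSMUSG00000056973, chr8:93166068-93197838), a triacylglycerol hydrolase of mouse fat and liver, was the third most abundant member per length. It had 301, 409 and 452 CPM in e-cigarette, 461, 525 and 629 CPM in smoke and 433, 533 and 639 CPM in air libraries. E-cigarette and smoke did not overlap, and 4 of 6 e-cigarette libraries lay below every air library. Ces1d fell by 0.41 in e-cigarette against air (SE 0.12, adjusted p = 0.0141) and was higher by 0.43 in smoke than in e-cigarette (SE 0.12, adjusted p = 0.0156). The difference against air was -0.20 (adjusted p = 0.248) without air replicates 4, 5 and 6, -0.01 with the 4 tissue terms, and -0.28 (adjusted p = 0.381) without e-cigarette replicates 2, 4, 5 and 6.

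Ces1f, a liver carboxylesterase relative, had 13.2, 17.2 and 19.1 CPM in e-cigarette, 19.2, 20.2 and 33.7 CPM in smoke and 13.5, 18.1 and 20.4 CPM in air libraries. Smoke replicates 1 and 2, at 33.7 and 30.8 CPM, stood above the rest. Ces1f was higher in smoke than in e-cigarette (0.52, SE 0.15, adjusted p = 0.0228), a call lost without smoke replicate 1 (0.39, adjusted p = 0.0643), smoke replicate 2 (0.43, adjusted p = 0.0588) or e-cigarette replicate 5 (0.46, adjusted p = 0.0551). Ces1g was not called (0.44 in e-cigarette against air, adjusted p = 0.172). Adipocyte markers also differed between groups. Summed CPM of 10 adipocyte genes was 725 to 1151 in e-cigarette, 1170 to 1691 in smoke and 993 to 1443 in air libraries, with 2 of 10 lower in e-cigarette against air, 8 of 10 higher in smoke against e-cigarette, and none at 0 throughout a group. Within air, Ces1d was at 446, 488 and 433 CPM in replicates 1, 2 and 3 and at 577, 606 and 639 CPM in replicates 4, 5 and 6. The adipocyte sums in the same libraries were 1443, 1139 and 1297 CPM, then 1208, 1216 and 993 CPM. The part of adipocyte transcript levels in the carboxylesterase results was not tested.

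**Figure D5:**
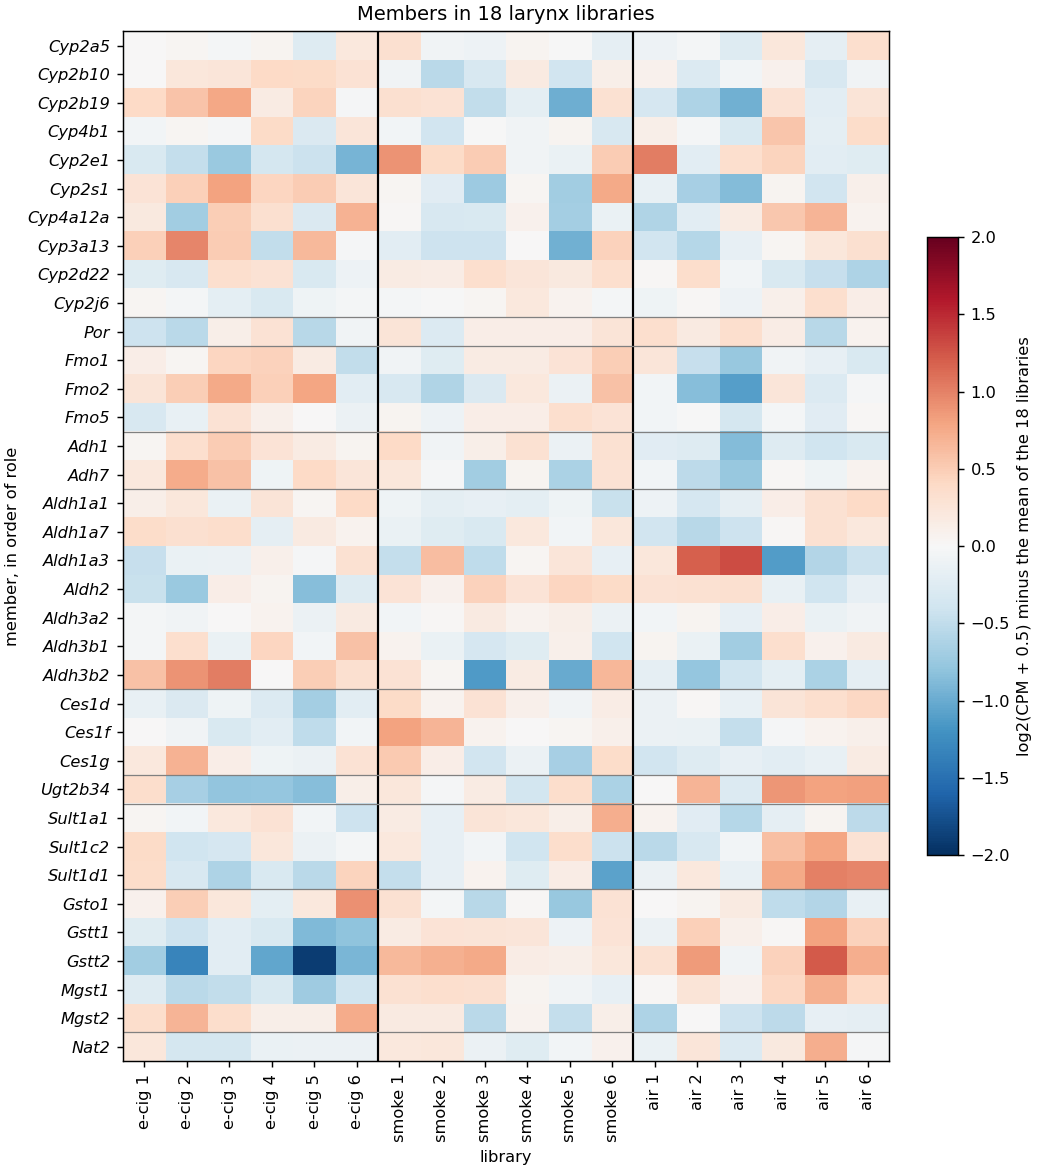
Log2(CPM + 0.5) of the 36 tested members (rows, ordered by role) in 18 libraries (columns, e-cigarette, smoke and air), each row centred on its mean over the libraries and coloured from -2 to 2. Rows of Gstt1, Gstt2 and Mgst1 are low across the e-cigarette columns, and Aldh1a3 and Sult1d1 differ between air replicates 1 to 3 and 4 to 6.

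A wider list of 136 other genes of foreign compound handling (other Phase I and II enzymes, cofactor supply, transporters and regulators) gave 115 tested genes. Of these 22 were higher and 16 lower in e-cigarette against air (33% called, against 25.1% of all genes), 4 higher and 1 lower in smoke against air (4.35%, against 1.59%), and 18 higher and 10 lower in smoke against e-cigarette (24.3%, against 16.5%). Transporters gave 5 higher and 1 lower of 11 in e-cigarette against air, and other Phase II enzymes 8 higher and 3 lower of 33. Over all genes 12.1% were higher and 13% lower in that comparison. Papss2, which makes the sulfate donor that sulfotransferases use, averaged 66.7 ± 15.1 CPM in e-cigarette and 141 ± 12.3 CPM in air libraries (SD, n = 6 each), and Slco2a1, a prostaglandin transporter, 21.7 ± 7.41 CPM in e-cigarette and 59.0 ± 10.6 CPM in air libraries. Their log2 differences were -1.08 and -1.44, and smoke exceeded e-cigarette by 1.09 and 1.52. Abcb1a, the drug efflux pump P-glycoprotein, rose in e-cigarette against air (18.6 ± 2.19 CPM in e-cigarette and 8.31 ± 2.32 CPM in air, SD, n = 6 each, log2 difference 1.16), as did Slc47a1, an organic cation exporter (0.72), and Ugt8a, a ceramide galactosyltransferase (0.95), while the carboxylesterase Ces1e fell by 0.78.

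After smoke the 5 called genes of that wider list were Cyp1a1, a P450 that polycyclic aromatic hydrocarbons induce (2.17, with 3.02 ± 0.703 CPM in smoke and 0.668 ± 0.336 CPM in air, SD, n = 6 each), Ahrr, the repressor of its receptor (1.96), Abcb1a (0.79), Aldh1l1, a folate enzyme (0.73), and Nfe2l2, which encodes NRF2 (-0.38). The calls of Abcb1a, Aldh1l1 and Nfe2l2 were each lost without at least 6 of the libraries taken singly, among them air replicates 4, 5 and 6 and smoke replicates 5 and 6. Adjusted p reached 0.0865 for Abcb1a, 0.0878 for Aldh1l1 and 0.0748 for Nfe2l2. Between smoke and e-cigarette the smallest p-values in the list, after Papss2 and Slco2a1, belonged to Cyp1a1 (1.88), Ces1e (0.68), Gstt3 (0.75) and Ephx2, the soluble epoxide hydrolase (0.46). With the 4 tissue terms edgeR called none of the 115 (28, 9 and 11 at an unadjusted p below 0.05 in e-cigarette against air, smoke against air and smoke against e-cigarette).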

How the data were processed

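The authors deposited 1 table of raw counts, whole numbers of reads per gene, in which each of 18 columns matched 1 sample title and 0 columns were left unmapped. The submitters' processing notes name STAR, featureCounts 1.5.0-p3, GRCm38 and mm10. For the annotation release and strand setting nothing is stated in the sources used here. The NEBNext Ultra kit named in the labels' protocols does not mark strand, so reads from overlapping genes on opposite strands cannot be told apart. Libraries of 1 group always differed beyond counting noise, with a chi-square over its degrees of freedom of 17.1 to 151.

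Genes were filtered with filterByExpr (minimum count 10, minimum total count 15). One edgeR 4.0.16 model (R 4.3.3, TMM scaling, robust quasi-likelihood F test, no covariates) held all 3 groups, with Benjamini-Hochberg adjustment across 17537 genes. Each adjusted p without another tool's name is from this edgeR test. CPM uses TMM-scaled library totals, and CPM per kb divides by the deposited gene length. The fit was checked on simulated counts with known changes. Members called in any comparison, and 24 listed by name, are given in full; of the wider list, the 6 smallest p per comparison with a mean of at least 1 CPM, and Gstt3 beside its class. The members and lists were chosen with earlier results of these data known. The 30 alternatives were DESeq2 1.42.0, limma 3.58.1 voom, other scalings and filters, 2-group fits, a replicate block, 4 tissue covariates, sets of libraries left out, and each of the 18 libraries left out.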

Additional observations from a re-analysis of the deposited data

Results flagged for a closer look

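In each group of 6, the gap of the highest or lowest library to its nearest neighbour was set against the group's whole range. Of 102 groups with a mean of at least 1 CPM, 6 were past Dixon's 95% critical ratio, and chance flags about 1 in 20. Por stood low in smoke replicate 2 (270 CPM, the others 358 to 393) and in air replicate 5 (224 CPM, the others 343 to 415). Adh1 stood low in air replicate 3 (36.7 CPM, the others 51.0 to 57.2). Aldh1a1 stood low in smoke replicate 6 (507 CPM, the others 600 to 648), the smoke library with the highest summed squamous markers. Gstt1 stood low in smoke replicate 5 (21.8 CPM, the others 26.1 to 28.3). Nat2 stood high in e-cigarette replicate 1 (6.24 CPM, the others 4.02 to 4.85).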

How the results depend on the processing

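No called member changed direction under any of the 30 alternatives. Some differences of uncalled members changed sign. In e-cigarette against air, where 13 members and 38 other xenobiotic genes were called with a member median of 0.07, the 4 tissue covariates left 1 member and 0 other genes (1.34% of all genes). Leaving out e-cigarette replicates 2, 4, 5 and 6 left 2 and 5 (3.71% of all genes), with a median of -0.063. The median was -0.045 with library totals without TMM, where the median of all genes was -0.10 (0.01 with TMM), and -0.043 without air replicates 1, 2 and 3, a set chosen after seeing the data. In smoke against air (1 member, 5 others), member calls were 2 with DESeq2 (5.88% of the genes it gave an adjusted p). Member calls were 5 with voom (6.39% of all genes) and 5 without air replicates 1, 2 and 3 (12%). They were 0 with library totals (1.68%), in a fit of 2 groups, with the replicate block, with the covariates and without e-cigarette replicates 2, 4, 5 and 6. Other genes called were 10 with voom, 12 without air replicates 1, 2 and 3, 3 in a fit of 2 groups (0.642% of all genes), 2 with the replicate block (0.222%), 0 with the covariates (0.0171%), 3 without air replicates 4, 5 and 6 (2.49%) and 3 without e-cigarette replicates 2, 4, 5 and 6 (0.88%). In smoke against e-cigarette (9 members, 28 others), the covariates left 0 and 0 (0 of all genes), and leaving out e-cigarette replicates 2, 4, 5 and 6 left 0 and 3 (0.794% of all genes). With the covariates 7 of the other xenobiotic genes also changed sign, none of them then called: Cyp2j9 (0.077), Maoa (0.34), Gstm1 (-0.15) and Abcb1b (-0.052) in e-cigarette against air, and Aldh9a1 (-0.070), Cebpa (-0.070) and Slc22a3 (-0.034) in smoke against e-cigarette. These covariates use 4 residual degrees of freedom and overlap the groups, and fewer libraries lower the power; the cause was otherwise not tested. Leaving out single libraries gave 10 to 14 members, 31 to 40 others and a median of -0.00 to 0.09 in e-cigarette against air; 0 to 1, 2 to 7 and -0.02 to 0.05 in smoke against air; and 7 to 12, 18 to 30 and -0.06 to 0.04 in smoke against e-cigarette. Of all genes 20.8 to 24.9%, 0.282 to 3.17% and 11.9 to 18.2% were called, in that order of comparisons. In e-cigarette against air 9 members were called in each of these 18 fits (Adh1, Aldh3b2, Ces1d, Cyp2e1, Gstt1, Gstt2, Mgst1, Mgst2 and Ugt2b34). In smoke against e-cigarette they were 6 (Aldh2, Ces1d, Cyp2e1, Gstt1, Gstt2 and Mgst1). Same-numbered libraries did not deviate together (correlation -0.36 to -0.02, -0.33 to 0.13 and -0.48 to 0.19 over 6 pairs in the 3 comparisons, and 0 libraries correlated best with their own number), so the numbers are not taken as pairs. Depth limits Cyp2a4, Nat1, Cyp4a12a and Sult1c2, at or below about 1 CPM.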
